A study of Arabidopsis thaliana with 24 samples.

Results

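The 10 genes described here encode central regulators of light signalling in Arabidopsis thaliana seedlings: the ubiquitin ligase gene COP1 (AT2G32950), DET1 (AT4G10180), the 4 SPA genes SPA1 (AT2G46340), SPA2 (AT4G11110), SPA3 (AT3G15354) and SPA4 (AT1G53090), the bZIP factor genes HY5 (AT5G11260) and HYH (AT3G17609), and the B-box factor genes BBX21 (AT1G75540) and BBX22 (AT1G78600). They were taken by locus identifier and are 10 of the 33540 genes listed in each sample. All 10 passed the filter on low values at both ages. Transcripts were measured by RNA-seq in 24 samples of whole wild-type Col-0 seedlings, in 8 groups of 3 samples. At each of the ages of 7 days and 2 days the groups were Heatin at 27°C, mock at 27°C, Heatin at 22°C and mock at 22°C. Heatin, a small aromatic compound that the study selected because it promotes hypocotyl elongation, was present in the medium at 8.5 µM in 0.1% DMSO, and mock medium held 0.1% DMSO alone. All seedlings grew in short days of 8 h light and 16 h darkness and were frozen at dawn. Each sample pooled the RNA of 3 separately harvested batches of many seedlings, so a sample averages over plants, and p-values measure the spread between such pools. The comparisons ask how transcripts of this pathway differ with warmth, with the compound and with seedling age.

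COP1 is a ubiquitin ligase that, together with its SPA partners, marks light-promoting transcription factors for breakdown in darkness, and photoreceptors inactivate the complex in light. DET1 belongs to the COP10-DET1-DDB1 complex, which acts with COP1 to repress light development. HY5 and its relative HYH bind ACGT-containing promoter elements and activate many light-induced genes, and BBX21 and BBX22 are B-box zinc finger proteins that work with HY5 and are themselves substrates of COP1. In warm seedlings, COP1, DET1 and HY5 are known to act on hypocotyl elongation upstream of or alongside PIF4. These proteins are regulated largely by stability and activity, which transcript levels do not show.

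Because HY5 and HYH bind ACGT elements, the 250 bases in front of the annotated gene start are printed for 3 members whose transcripts were lower at 27°C at both ages, HYH, SPA3 and SPA1, and for BBX21, whose transcripts were higher. The sequences and gene models are those of RefSeq (build TAIR10.1), 5′ to 3′ on the strand of the gene, and capitals mark the letters ACGT. HYH lies on the plus strand of chromosome 3, with its window at chr3:6023594-6023843. SPA3 is on the minus strand, with its window at chr3:5173106-5173355, and SPA1 is also on the minus strand, at chr2:19027529-19027778. The BBX21 window is on the plus strand at chr1:28365574-28365823.
HYH: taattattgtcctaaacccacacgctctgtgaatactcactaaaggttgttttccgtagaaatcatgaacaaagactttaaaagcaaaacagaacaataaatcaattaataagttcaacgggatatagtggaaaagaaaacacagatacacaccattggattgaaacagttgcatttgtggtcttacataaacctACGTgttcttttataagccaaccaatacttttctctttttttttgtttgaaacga
SPA3: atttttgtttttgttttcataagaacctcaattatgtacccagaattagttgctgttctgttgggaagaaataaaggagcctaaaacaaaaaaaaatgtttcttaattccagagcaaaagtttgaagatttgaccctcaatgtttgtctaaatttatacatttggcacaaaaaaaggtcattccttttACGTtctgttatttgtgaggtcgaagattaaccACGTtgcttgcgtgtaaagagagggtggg
SPA1: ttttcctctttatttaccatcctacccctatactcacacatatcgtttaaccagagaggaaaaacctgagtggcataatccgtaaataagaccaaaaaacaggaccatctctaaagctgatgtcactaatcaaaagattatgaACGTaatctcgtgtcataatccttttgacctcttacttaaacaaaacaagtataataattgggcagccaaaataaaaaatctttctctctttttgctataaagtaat
BBX21: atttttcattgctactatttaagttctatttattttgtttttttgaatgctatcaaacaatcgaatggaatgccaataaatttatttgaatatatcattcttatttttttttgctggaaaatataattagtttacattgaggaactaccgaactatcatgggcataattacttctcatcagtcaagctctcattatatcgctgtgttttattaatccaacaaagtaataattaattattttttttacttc

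In the same build the genes span chr2:13977881-13983609 (COP1), chr4:6346411-6349314 (DET1), chr2:19022154-19027528 (SPA1), chr4:6771605-6777225 (SPA2), chr3:5169095-5173105 (SPA3), chr1:19783185-19786902 (SPA4), chr5:3593335-3595073 (HY5), chr3:6023844-6024710 (HYH), chr1:28365824-28367738 (BBX21) and chr1:29566863-29568931 (BBX22). All are protein-coding, and for none did a stretch of 50 exon bases recur elsewhere in the nuclear genome.

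ACGT reads the same on both strands. It occurred once in the HYH window, starting at position -55 counted from the gene start, at 2 places in the SPA3 window, at -62 and -29, once in the SPA1 window at -107, and nowhere in the BBX21 window. Over all 10 members the window held ACGT in 6, and 44.1% of the 27443 windows of this length at protein-coding genes held it. The G-box, CACGTG, was in none of the 10 windows, against 6.49% of all windows, searched on both strands. The related letters CACGTT, searched on both strands, were in the windows of COP1, SPA2, SPA3 and HY5, against 7.54% of all windows. Each of these longer motifs contains ACGT, and a match is a description of the letters only.

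The samples held 19705950 to 60575036 reads on genes (median 34387203.5), so 1 read was worth 0.598 to 2.09 normalised reads. Counting error is larger for members with few reads, such as BBX22, which had 129 reads in mock 22°C replicate 2 at 7 days. No 2 replicates were alike enough to be a repeat of 1 library: over the 24 replicate pairs the smallest chi-square per degree of freedom was 2.84. All 5 green tissue markers and all 4 root markers were detected in every group, and root marker sums were higher at 2 days. Green tissue marker sums at 7 days ranged from 1248180 to 1342110 with Heatin at 27°C, 1257650 to 1446980 in mock at 27°C, 2113010 to 2394390 with Heatin at 22°C and 2288790 to 2302180 in mock at 22°C. In whole seedlings, fewer cells of a type and less RNA per cell cannot be told apart.

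The members differed in level and in how far they moved. Per kilobase of exon, BBX21 was the most abundant of the 10, with group means of 3283 to 4660 normalised reads per kilobase, and SPA4 had the lowest median over the 8 groups, with group means of 109.8 to 336. DET1 lay between 635 and 817 normalised reads per kilobase, and COP1 between 428 and 614. Within a gene, the highest of the 8 group means was 7.32 times the lowest for HYH, 3.06 times for SPA4, 3.04 times for SPA3, 2.65 times for SPA1, 2.27 times for BBX22 and 2.06 times for HY5. The same ratio was 1.43 for COP1, 1.42 for BBX21, 1.29 for DET1 and 1.24 for SPA2. The plot of values by sample shows that Heatin and mock groups of the same age and temperature lay close together for most members.

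**Figure D1:**
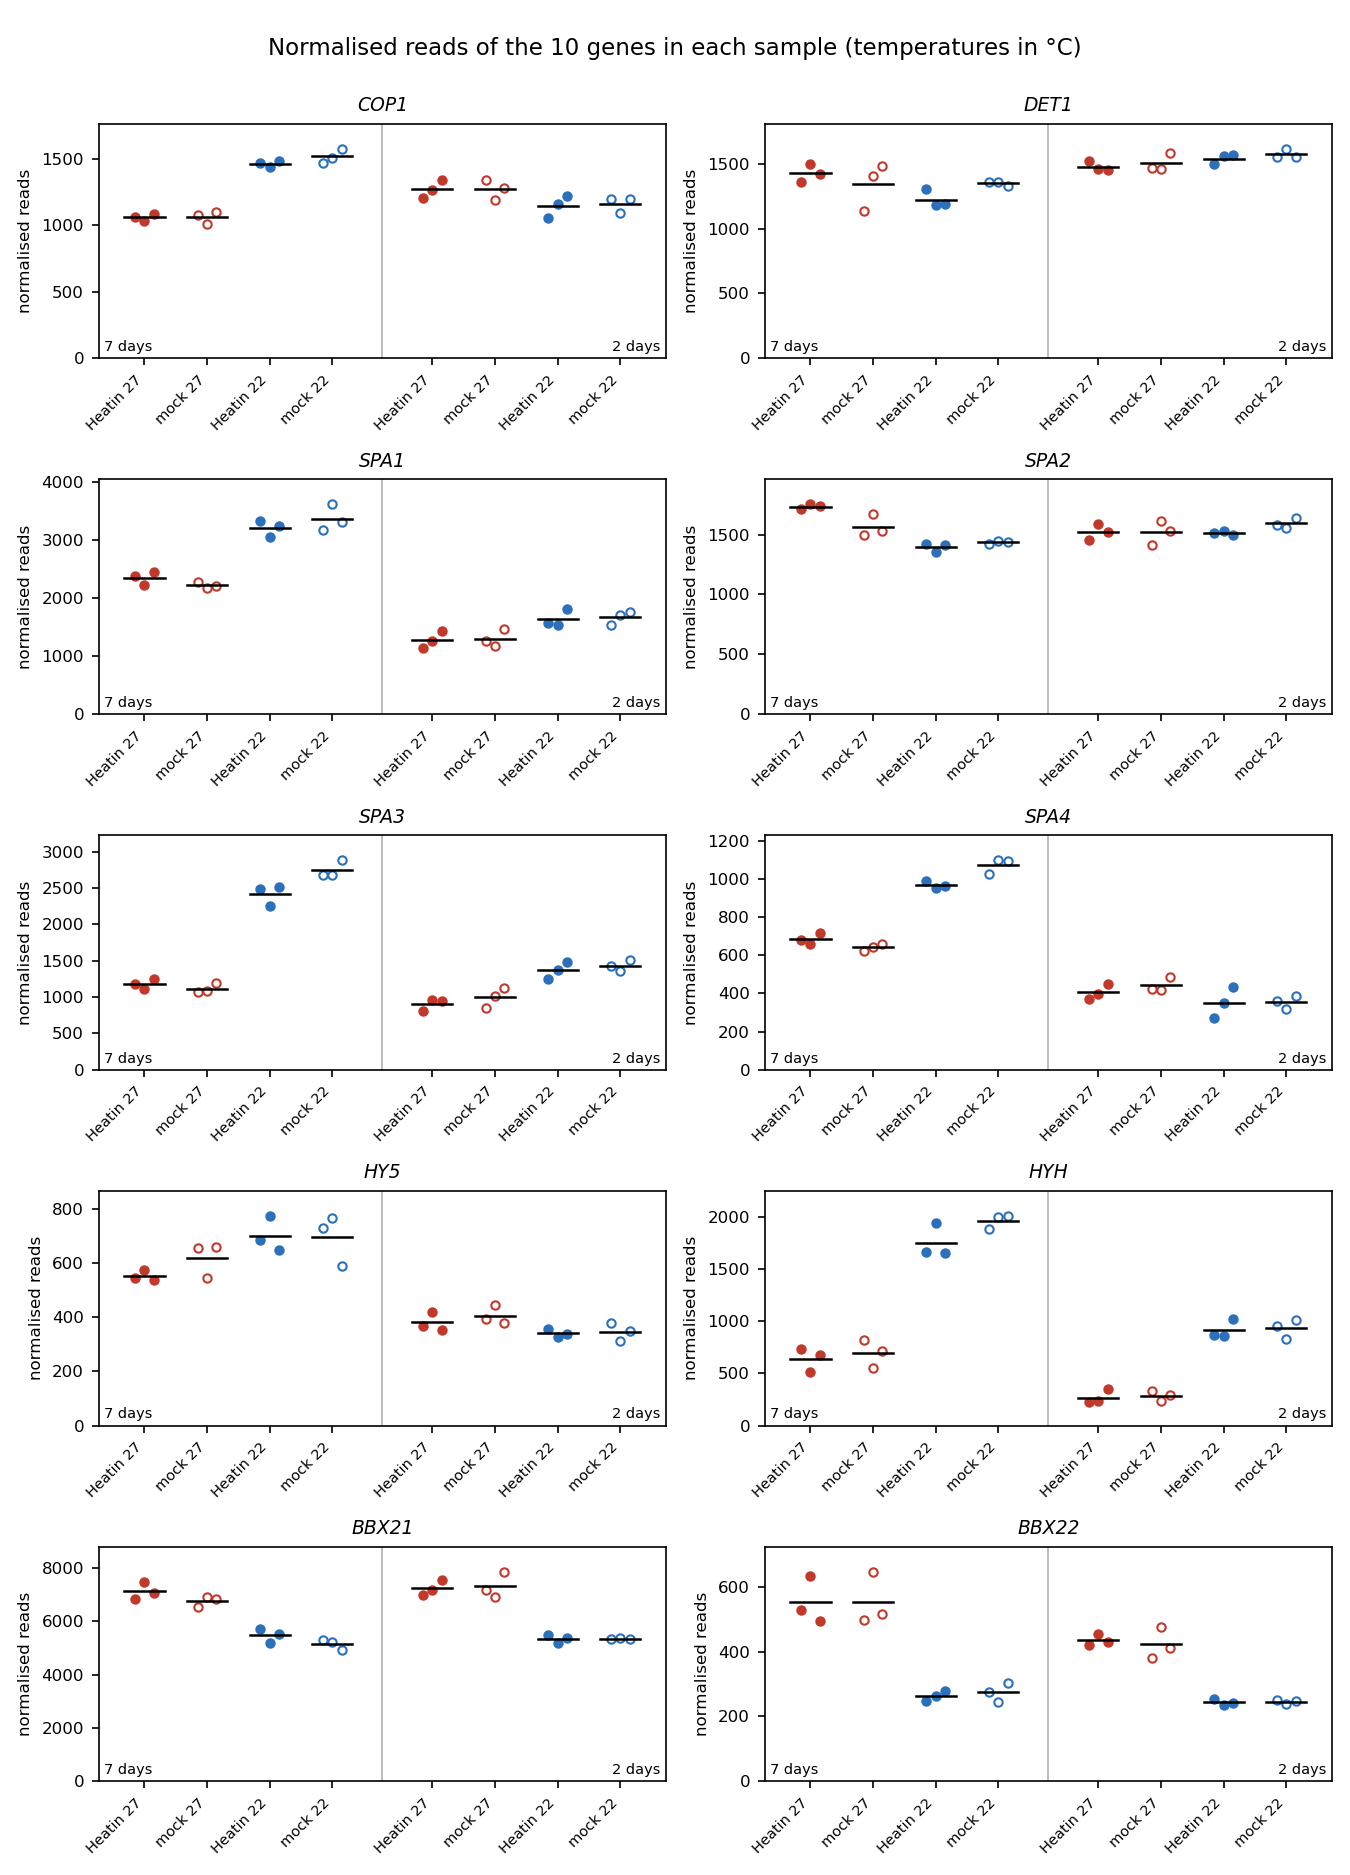
Normalised reads (reads divided by a depth factor) of the 10 genes in each of the 24 samples, by group, with 7 days on the left of each panel and 2 days on the right. Filled points are Heatin and open points mock, red is 27°C and blue 22°C, and bars are means of 3 samples. HYH stands lowest at 27°C at both ages, and for most genes Heatin and mock points of the same age and temperature lie close together.

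Warmth changed most members in mock seedlings. At 7 days 8 of 10 were called at an adjusted p below 0.1 by limma, 3 higher and 5 lower at 27°C, where 61.8% of all genes tested were called, 28.8% higher and 32.9% lower. At 2 days 7 of 10 were called, 4 higher and 3 lower, where 69.6% of all genes were called, 35.3% higher and 34.3% lower. Shares of 8 and 7 in 10 are near these backgrounds, so being called is not particular to the members. Members of 1 role did not all move the same way.

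COP1 transcripts were lower in the warmth at 7 days. COP1 had 1077, 1008 and 1104 normalised reads in mock seedlings at 27°C, against 1473, 1509 and 1579 at 22°C, and the 2 groups did not overlap. The log2 fold change was -0.52 ± 0.054 (SE), adjusted p = 6.29e-07 (limma). At 2 days COP1 had 1344, 1195 and 1282 normalised reads at 27°C, against 1197, 1096 and 1200.3 at 22°C. These values overlap, with a log2 fold change of 0.13 ± 0.073 and an adjusted p of 0.14. Without mock 27°C replicate 2 the value was 0.17 and the adjusted p 0.0794, and COP1 was also called with the replicate number as a block (0.0878) or all 24 samples in 1 fit (0.0739). The difference between the ages was itself significant: the log2 fold change at 7 days minus that at 2 days was -0.65 ± 0.087, adjusted p = 7.5e-06 (limma). DET1, which acts in the same repression pathway, was not called in mock seedlings at either age, with log2 fold changes of -0.018 ± 0.082 at 7 days and -0.068 ± 0.052 at 2 days. One of its samples stood low: DET1 had 1135, 1408 and 1486 normalised reads at 27°C and 1362, 1365 and 1327 at 22°C in 7-day-old mock seedlings. Without that low sample, mock 27°C replicate 1, the difference of the DET1 response between the ages was 0.17 with an adjusted p of 0.098, and with it 0.050 ± 0.10 (adjusted p = 0.726).

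Of the SPA genes, SPA3 changed most. SPA3, with SPA4 the pair best known for acting in light-grown plants, had 1064, 1080.1 and 1191 normalised reads in 7-day-old mock seedlings at 27°C, against 2671, 2678 and 2880.3 at 22°C. Every sample at 27°C was below every sample at 22°C by a wide gap, and the log2 fold change was -1.30 ± 0.065, adjusted p = 1.85e-10. At 2 days SPA3 had 851, 1010.5 and 1119 at 27°C, against 1425, 1359.9 and 1510.0 at 22°C, again without overlap, for a log2 fold change of -0.53 ± 0.10. SPA3 therefore fell further at 7 days, and the difference between the ages of -0.77 ± 0.13 on the log2 scale had an adjusted p of 5.8e-05 (limma). In the SPA3 gene model 135 bases overlap AT3G15350 on the other strand, and reads were counted without strand. Ambiguous reads are kept in a summary line, equal to 1.06% to 1.28% of the signal on genes. Reads from that stretch may therefore be left out of the SPA3 values. SPA1 fell at both ages, by 0.60 on the log2 scale at 7 days (SE 0.058, adjusted p = 2.72e-07) and by 0.37 at 2 days (SE 0.10, adjusted p = 0.00812). SPA1 had 2271, 2171 and 2206 normalised reads at 27°C against 3169, 3610.4 and 3309.9 at 22°C at 7 days, with no overlap. The difference of its response between the ages, -0.23 ± 0.12, was not called, with an adjusted p of 0.14, but without mock 27°C replicate 2 at 2 days it was -0.30 with an adjusted p of 0.0586, and blocking on replicate number gave an adjusted p of 0.0803.

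SPA4 moved in opposite directions at the 2 ages. It had 621, 644 and 660.2 normalised reads in 7-day-old mock seedlings at 27°C, against 1027, 1099 and 1093 at 22°C, which is a log2 fold change of -0.74 ± 0.058 with an adjusted p of 2.68e-08. At 2 days it had 423, 418 and 487 at 27°C, against 359, 318 and 388 at 22°C, which is 0.32 ± 0.15 with an adjusted p of 0.0781. The samples of the 2 temperatures did not overlap at either age. The difference between the ages, -1.06 ± 0.16, was the largest in size among the 10 members (adjusted p = 2.69e-05, limma). The rise at 2 days was near the threshold: without mock 22°C replicate 2 it was 0.24 with an adjusted p of 0.235, and it also missed the threshold, with the adjusted p in parentheses, without mock 22°C replicate 1 (0.128), mock 27°C replicate 1 (0.101) or mock 27°C replicate 3 (0.221). SPA2, which acts mainly in darkness, stayed within a narrow band. At 7 days it had 1497, 1669.7 and 1533 at 27°C, against 1426, 1446 and 1442 at 22°C, which is 0.12 ± 0.052 with an adjusted p of 0.0582. Without mock 27°C replicate 2, the highest of these samples, that difference was 0.075 with an adjusted p of 0.279, and it also missed the threshold without mock 22°C replicate 1 (adjusted p = 0.129) or replicate 3 (adjusted p = 0.104).

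HYH had the largest response to warmth of the 10. In 7-day-old mock seedlings HYH had 816, 552 and 710.4 normalised reads at 27°C, against 1883, 1998 and 2008 at 22°C. In 2-day-old mock seedlings it had 331, 236 and 289 at 27°C, against 952, 829.8 and 1014 at 22°C. The temperatures were far apart at both ages. The log2 fold change was -1.52 ± 0.13 at 7 days (adjusted p = 8.17e-08) and -1.71 ± 0.17 at 2 days (adjusted p = 7.45e-06), and the genes tested had a median change in size of 0.36 at 7 days and 0.47 at 2 days on the same scale. The difference between the ages, 0.19 ± 0.23, with a 95% interval of -0.29 to 0.68, was not called (adjusted p = 0.528).

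HY5, the better known of these relatives, was called in mock seedlings at 2 days only. HY5 had 658, 544 and 662 normalised reads at 27°C, against 729.9, 769 and 589 at 22°C, at 7 days in mock seedlings. The samples overlap, since replicate 3 at 22°C is below both higher samples at 27°C, and the log2 fold change of -0.16 ± 0.10 had an adjusted p of 0.201. Without mock 22°C replicate 3 it was -0.27 with an adjusted p of 0.0281. At 2 days HY5 had 393, 446 and 379 at 27°C, against 379, 314 and 349.9 at 22°C, which is 0.22 ± 0.10 with an adjusted p of 0.0611. The lowest sample at 27°C lay less than 1 normalised read above the highest at 22°C, and without mock 22°C replicate 2 or mock 27°C replicate 2 the difference was 0.15 or 0.16, with adjusted p-values of 0.226 and 0.217. The change in the HY5 response with age was -0.38 ± 0.15 with an adjusted p of 0.0412, and this missed the threshold without mock 22°C replicate 2 or mock 27°C replicate 2 at 2 days, or without mock 22°C replicate 2 or mock 27°C replicate 2 at 7 days (adjusted p of 0.118, 0.107, 0.118 and 0.127).

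Both BBX genes rose in the warmth at both ages. BBX22, listed as LZF1 in RefSeq, had 497, 646 and 515 normalised reads in 7-day-old mock seedlings at 27°C, against 277, 244 and 305 at 22°C. At 2 days it had 381, 475 and 410.5 at 27°C, against 249.8, 239.8 and 248 at 22°C. All samples at 27°C exceeded all samples at 22°C, with log2 fold changes of 1.00 ± 0.12 at 7 days (adjusted p = 2.07e-06) and 0.77 ± 0.086 at 2 days (adjusted p = 1.72e-05). BBX21, which binds the HY5 promoter and activates HY5, rose less in ratio but from a far higher level. It had 6537, 6919.8 and 6847 at 27°C, against 5312, 5244 and 4917 at 22°C, at 7 days, without overlap, and its log2 fold change was 0.39 ± 0.054 at 7 days and 0.45 ± 0.061 at 2 days (adjusted p = 1.29e-05 and 5.73e-05). Neither response differed between the ages beyond the threshold (adjusted p = 0.237 for BBX22 and 0.594 for BBX21).

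Over all 10 members, 5 had a response to warmth in mock seedlings that differed between 7 days and 2 days, 1 more positive at 7 days (SPA2, 0.19 ± 0.074, adjusted p = 0.0399) and 4 more negative (COP1, SPA3, SPA4 and HY5), where 50.1% of all genes tested were called. The members' share of 5 in 10 is at this background, so the count is not particular to them. Without mock 27°C replicate 2 at 7 days this count was 3, since SPA2 (0.15, adjusted p = 0.124) and HY5 were lost, and SPA2 was also lost without mock 27°C replicate 1 at 2 days (0.14, adjusted p = 0.126). Green tissue marker sums differed with temperature at 7 days, as given above, and overlapped at 2 days, when they were 772318 to 1134760 in mock at 27°C and 893212 to 1053820 in mock at 22°C. All 5 green tissue markers and all 4 root markers fell at 27°C in mock seedlings at 7 days, where 32.9% of all genes fell. At 2 days 1 of 5 and 2 of 4 fell, where 34.3% of all genes fell. The part of these markers in these results was not tested.

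**Figure D2:**
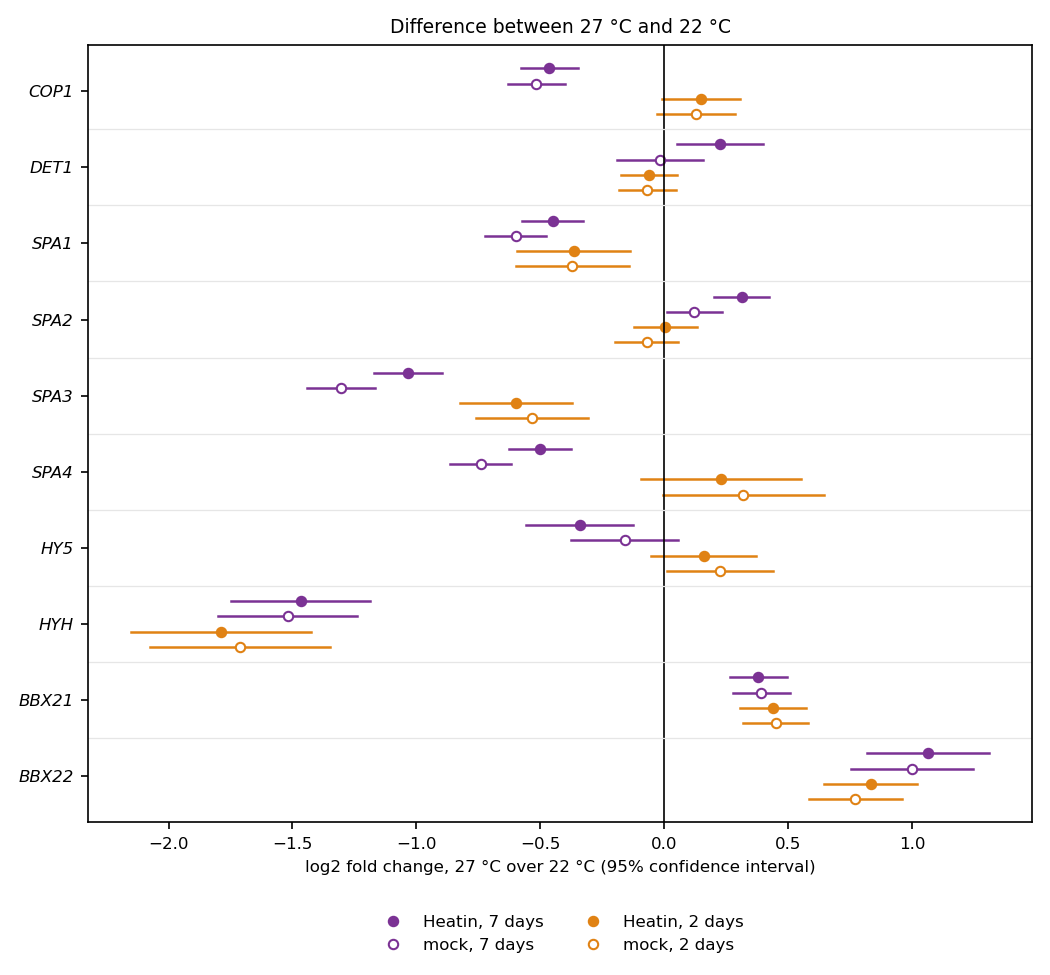
Log2 fold change between 27°C and 22°C of each gene, with 95% confidence intervals, in Heatin (filled) and mock (open) seedlings of 7 days (purple) and 2 days (orange), 3 samples a group. HYH lies furthest to the left at both ages, both BBX genes lie right of 0, and COP1, SPA4 and HY5 lie left of 0 at 7 days and right of it at 2 days.

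Seedlings on Heatin responded to warmth in a similar way. At 7 days all 10 members were called, 4 higher and 6 lower at 27°C, where 62.9% of all genes were called, 29.4% higher and 33.5% lower. DET1 (0.22 ± 0.082, adjusted p = 0.0277) and HY5 (-0.34 ± 0.10, adjusted p = 0.00922) were called here and not in mock seedlings. DET1 had 1366, 1501 and 1427 normalised reads with Heatin at 27°C, against 1305, 1183 and 1189.8 with Heatin at 22°C, and HY5 had 544, 575 and 540.2 against 685, 775 and 648. Neither pair of groups overlapped. A call on Heatin and none in mock does not show a difference: the test of the difference itself, given with the Heatin results, passed for neither gene. At 2 days 6 of 10 were called, 3 higher (COP1, BBX21 and BBX22) and 3 lower (SPA1, SPA3 and HYH), where 68.5% of all genes were called, 34.1% higher and 34.4% lower. The COP1 value at 2 days, 0.15 ± 0.073 with an adjusted p of 0.0934, missed the threshold without Heatin 22°C replicate 1 (0.091, adjusted p = 0.329) or replicate 2 (adjusted p = 0.137), and without Heatin 27°C replicate 2 (adjusted p = 0.15) or replicate 3 (adjusted p = 0.261). SPA4 was not called at 2 days (0.23 ± 0.15), and without Heatin 22°C replicate 3 it was 0.39 with an adjusted p of 0.0238, while the adjusted p was 0.0594 with the replicate number as a block and 0.084 with all 24 samples in 1 fit. HYH was again lowest at 27°C, with 737, 508 and 673 normalised reads with Heatin at 27°C at 7 days, against 1664, 1939.6 and 1656 with Heatin at 22°C.

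Other genes of the pathway were followed in 7 lists of 47 genes, with group means given ± SD over 3 samples and log2 fold changes ± SE. Of the 10 listed targets of HY5, 9 were tested, and 8 fell and 1 rose at 27°C in 7-day-old mock seedlings, with 7 lower and 1 higher at 2 days. Of all genes tested, 32.9% were lower and 28.8% higher at 7 days, and 34.3% lower and 35.3% higher at 2 days. The median log2 fold change of the 9 targets was -1.20 at 7 days and -1.08 at 2 days. The medians over all genes tested were -0.031 and 0.0061. ELIP2, an early light-induced protein gene, averaged 10.2 ± 2.11 normalised reads at 27°C and 60.4 ± 3.76 at 22°C at 7 days (log2 fold change -2.47 ± 0.26, adjusted p = 6.96e-07). FLS1, the flavonol synthase gene, averaged 99.5 ± 24.9 at 27°C and 703 ± 59.9 at 22°C at 2 days (-2.83 ± 0.17, adjusted p = 5.01e-07). F3H, the listed target below the filter, had 0 to 2.83 normalised reads over all samples. The exception was RUP1, a repressor of the UV-B receptor, which rose by 0.62 ± 0.10 at 7 days and 0.72 ± 0.27 at 2 days. CHS, the chalcone synthase gene, fell at both ages, by 0.45 on the log2 scale at 7 days and by 2.10 at 2 days, and the difference of 1.65 ± 0.19 had an adjusted p of 1.11e-06.

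The single B-box genes, whose products BBX30, BBX31 and BBX32 can bind other B-box proteins, shifted with age. BBX26 was listed at 0 in all samples. At 7 days 4 of 6 tested fell and 2 rose at 27°C in mock seedlings, and at 2 days 3 rose and none fell. For this list and the double B-box list below, the shares of all genes were 32.9% lower and 28.8% higher at 7 days. At 2 days they were 34.3% lower and 35.3% higher. All 6 single B-box genes tested had a more negative response at 7 days than at 2 days. Of all genes, 50.1% had a difference in either direction, and 45% of these were more positive at 7 days. BBX32, which hinders HY5 and BBX21, averaged 8.91 ± 1.88 normalised reads at 27°C and 54.4 ± 7.85 at 22°C at 7 days (-2.49 ± 0.30, adjusted p = 3.56e-06), but only 4.29 ± 3.70 and 4.21 ± 1.25 at 2 days. BBX29 changed sign, with -0.55 ± 0.15 at 7 days and 1.27 ± 0.23 at 2 days (adjusted p = 0.004 and 0.000468). Among the other double B-box genes, the closest relatives of BBX21 and BBX22, 3 of 5 tested fell and 1 rose at 7 days, and 4 of 6 fell and 2 rose at 2 days. BBX25 averaged 1609 ± 215 at 27°C and 3743 ± 153 at 22°C at 7 days (-1.23 ± 0.084), a direction opposite to that of BBX21 and BBX22. BBX20 rose at 7 days (1.07 ± 0.13) and fell at 2 days (-0.52 ± 0.11), with a difference of 1.58 ± 0.17 (adjusted p = 3.84e-07).

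The subunits of the COP9 signalosome, which removes NEDD8 from cullins, moved by small amounts. The counts of this and the next lists stand against 28.8% of all genes higher and 32.9% lower at 7 days, and 35.3% higher and 34.3% lower at 2 days, and many are near these shares. At 7 days 4 of 10 rose and 1 fell at 27°C in mock seedlings, and at 2 days 6 of 10 fell and none rose, with medians of 0.073 and -0.23. For 8 of 10 the response was more positive at 7 days, CSN8 by the most (0.60 ± 0.086, adjusted p = 1.42e-05). In that comparison 50.1% of all genes were called in either direction, 45% of them more positive. Of the 4 partners of DET1 in its complex and their cullin, 2 rose and none fell at 7 days, and 3 rose and 1 fell at 2 days, with log2 fold changes of 0.062 to 0.22 at 7 days and -0.15 to 0.26 at 2 days. Among 5 genes for proteins that bind COP1, 1 rose and 3 fell at 7 days, and 2 rose and 1 fell at 2 days. CSU1, a ubiquitin ligase that acts on COP1, rose at both ages, with 4114 ± 51.8 normalised reads at 27°C and 2523 ± 89.5 at 22°C at 7 days (0.71 ± 0.065, adjusted p = 1.51e-07). Of 5 further transcription factors that COP1 targets, 1 rose and 2 fell at 7 days, and 2 rose and 1 fell at 2 days. HFR1, a bHLH factor that inhibits PIF proteins, rose at both ages and averaged 1598 ± 213 normalised reads at 27°C and 539 ± 117 at 22°C at 2 days (1.58 ± 0.21, adjusted p = 5.2e-05).

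**Figure D3:**
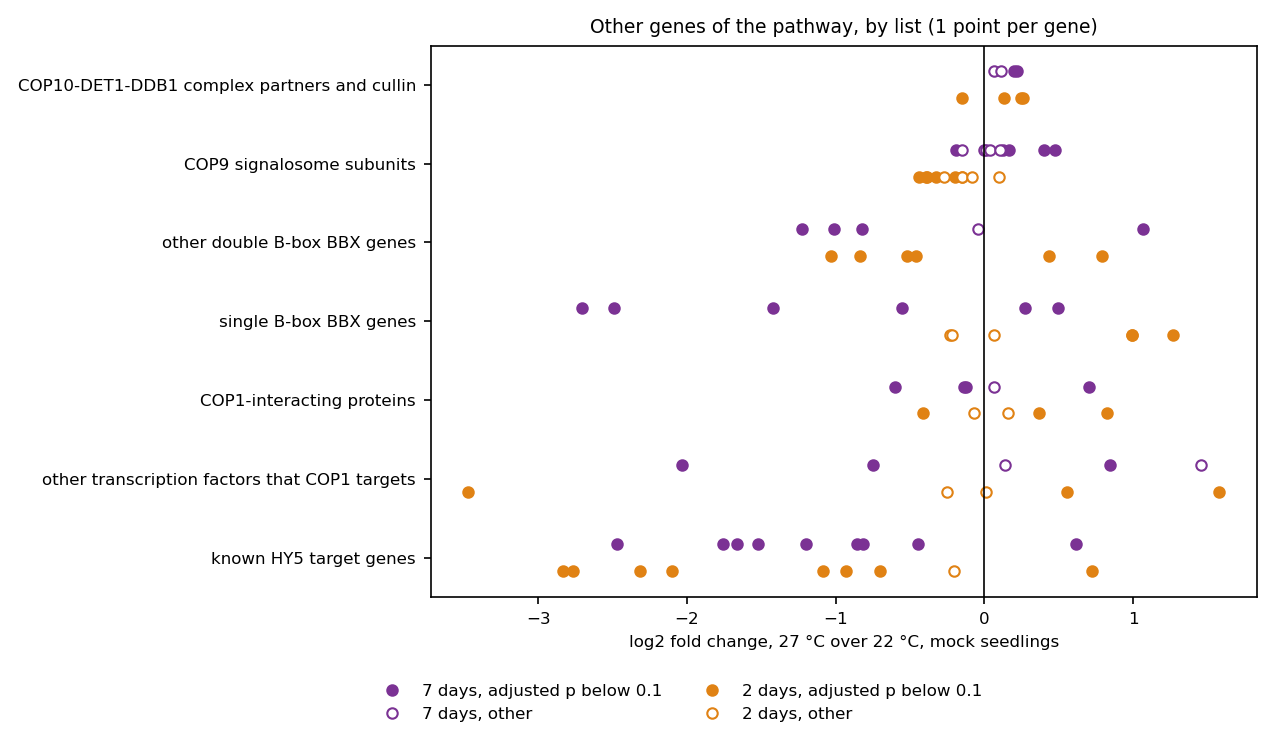
Log2 fold change between 27°C and 22°C in mock seedlings for the other genes of the pathway, 1 point per gene tested, at 7 days (purple) and 2 days (orange), with filled points at an adjusted p below 0.1. The HY5 target list lies left of 0 at both ages except for RUP1, and the single B-box genes reach -2.70 at 7 days only.

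Most members differed with age. In mock seedlings at 27°C 9 of 10 were called between 7 days and 2 days, 6 higher and 3 lower at 7 days, where 71.4% of all genes were called, 36.0% higher and 35.4% lower. At 22°C 8 of 10 were called, 6 higher and 2 lower, where 76.6% of all genes were called, 38.1% higher and 38.6% lower. The members' shares are not far from these backgrounds, and nothing particular to them is read from the counts. SPA4 showed the largest change, with 1027, 1099 and 1093 normalised reads at 7 days against 359, 318 and 388 at 2 days at 22°C, which is 1.60 ± 0.11 (adjusted p = 4.58e-11). At 27°C the same gene rose by 0.54 ± 0.11. These samples stood well apart at both temperatures.

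HY5 and HYH were both higher in older seedlings. HY5 rose by 0.61 ± 0.10 at 27°C and 0.99 ± 0.10 at 22°C, and HYH by 1.27 ± 0.16 and 1.08 ± 0.16, with no overlap of the ages. The listed HY5 targets mostly went the other way. Of 9 tested, 5 were lower and 1 higher at 7 days at 27°C, where 35.4% of all genes were lower and 36.0% higher. At 22°C 6 were lower and 1 higher, where 38.6% of all genes were lower and 38.1% higher. The median log2 fold changes of these targets were -0.29 and -1.94, against 0.014 and -0.011 over all genes tested. SPA1 rose by 0.78 ± 0.087 at 27°C and 1.01 ± 0.087 at 22°C. For SPA3 the log2 fold change with age was 0.17 ± 0.089 at 27°C (adjusted p = 0.0989) and 0.94 ± 0.089 at 22°C (adjusted p = 3.86e-09). COP1 was lower at 7 days at 27°C (-0.26 ± 0.062) and higher at 7 days at 22°C (0.39 ± 0.062), with adjusted p-values of 0.000838 and 8.41e-06. DET1 was lower at 7 days at both temperatures (-0.17 ± 0.072 and -0.22 ± 0.072), and SPA2 was lower at 22°C only by the threshold (-0.15 ± 0.052, against 0.045 ± 0.052 at 27°C). BBX22 rose at 27°C (0.38 ± 0.11, adjusted p = 0.00346), and its value at 22°C of 0.15 ± 0.11 was not called unless mock 22°C replicate 2 at 7 days was left out (0.24, adjusted p = 0.0728).

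The calls of SPA3, BBX21 and DET1 at 27°C were each lost when any of several single samples was left out. The SPA3 value was 0.062 with an adjusted p of 0.551 without mock 27°C replicate 1 at 2 days, and it missed the threshold, with the adjusted p in parentheses, without mock 27°C replicate 2 at 2 days (0.117), or replicate 2 (0.111) or 3 (0.306) at 7 days. The BBX21 value of -0.11 ± 0.057 was likewise lost without mock 27°C replicate 1 (0.103) or 3 (0.394) at 2 days, or replicate 1 (0.241) or 3 (0.115) at 7 days. The DET1 value was -0.057 with an adjusted p of 0.407 without mock 27°C replicate 1 at 7 days, and 0.143 was its adjusted p without mock 27°C replicate 3 at 2 days. These calls also depended on the fit: SPA3 had an adjusted p of 0.117 with edgeR, 0.109 with DESeq2, 0.105 with voom, 0.136 with TMM depth factors, 0.124 without the trend and 0.167 with only the groups compared. BBX21 had 0.106 with edgeR, 0.103 with voom, 0.106 with median-of-ratios depth factors and 0.22 with only the groups compared, and DET1 had 0.15 in that last fit. Among the double B-box genes, BBX23 was at 84.7 to 248 normalised reads in all 12 samples at 2 days and at 0 to 1.58 in all 12 at 7 days. Of the 6 single B-box genes tested, 4 rose with age and 0 fell at 27°C, where 36.0% of all genes rose. All 6 rose at 22°C, where 38.1% of all genes rose. Of the 5 green tissue markers 3 rose with age at 27°C, where 36.0% of all genes rose, and 5 at 22°C in mock seedlings. Seed reserve marker sums were 11.5 to 1689 at 7 days and 170.1 to 4587 at 2 days, root marker sums 52303 to 123875 at 7 days and 233398 to 291866 at 2 days, and their part in the age differences was not tested.

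**Figure D4:**
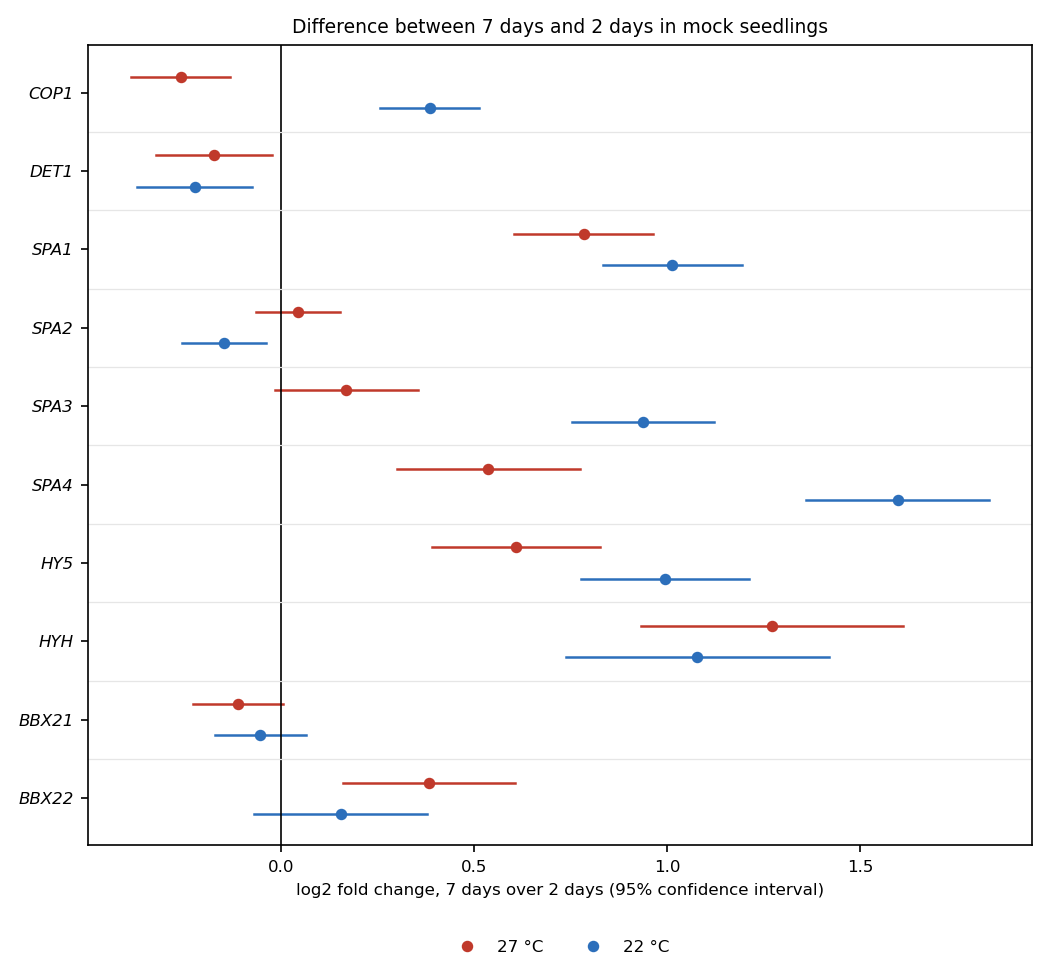
Log2 fold change between 7 days and 2 days in mock seedlings of each gene, with 95% confidence intervals, at 27°C (red) and 22°C (blue), 3 samples a group. HYH, HY5, SPA1 and SPA4 lie right of 0 at both temperatures, and COP1 lies left of 0 at 27°C and right of it at 22°C.

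Heatin changed none of the 10 members at the threshold used. At 7 days 0 of 10 were called by limma at 27°C, where 5.42% of all genes were called, and 0 of 10 at 22°C, where 2.47% were called. At an unadjusted p below 0.05 there were 1 and 2 members, and edgeR, DESeq2 and voom also called 0 in both. At 2 days 0 of 10 were called at 27°C and at 22°C, where 0.00432% of all genes were called at each temperature, and 0 had an unadjusted p below 0.05. Over both temperatures together 0 of 10 were called, where 6.58% of all genes were called at 7 days and 0.0173% at 2 days, and again 0 had an unadjusted p below 0.05. All 95% intervals at 7 days lay between -0.39 and 0.27 on the log2 scale at 27°C and between -0.45 and 0.24 at 22°C, so larger changes in these transcripts fall outside them.

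The members with an unadjusted p below 0.05 were SPA2 at 27°C and SPA3 and SPA4 at 22°C. SPA2 had 1712, 1753 and 1739.9 normalised reads with Heatin at 27°C at 7 days, against 1497, 1669.7 and 1533 in mock. All 3 Heatin samples were above all 3 mock samples, the log2 fold change was 0.15 ± 0.052, and its adjusted p was 0.154. Without mock 27°C replicate 2 it was 0.20 with an adjusted p of 0.0801, which made it the 1 member called. SPA3 had 2479.9, 2245 and 2509 with Heatin at 22°C, against 2671, 2678 and 2880.3 in mock, and the log2 fold change was -0.19 ± 0.065 with an adjusted p of 0.208. SPA4 had 989.5, 955 and 962 with Heatin at 22°C, against 1027, 1099 and 1093 in mock, a log2 fold change of -0.15 ± 0.058 with an adjusted p of 0.291. For SPA3, SPA4, DET1 and SPA2 all Heatin samples at 22°C were below all mock samples at 7 days, though none was called in the main fit. The share of all genes separated in this way was not counted, so nothing is read from this separation. Leading values such as those of SPA2, SPA3 and SPA4 are the extremes of 10 members.

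COP1, HY5 and HYH were not called between Heatin and mock at 27°C at 7 days. COP1 had 1065, 1031 and 1089 normalised reads with Heatin and 1077, 1008 and 1104 in mock, a log2 fold change of -0.0010 ± 0.054 with a 95% interval of -0.12 to 0.11. HY5 had 544, 575 and 540.2 with Heatin and 658, 544 and 662 in mock (-0.16 ± 0.10, interval -0.38 to 0.054), the largest difference in size of the 10 members in this comparison, with an adjusted p of 0.473. HYH had 737, 508 and 673 with Heatin and 816, 552 and 710.4 in mock (-0.11 ± 0.13, interval -0.39 to 0.17). These groups overlap, as do those of BBX21 and BBX22 at both temperatures.

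The test of whether the Heatin effect differed between 27°C and 22°C called 0 of 10 members at 7 days, where 0.783% of all genes were called, with 3 at an unadjusted p below 0.05. These were SPA2, SPA3 and SPA4, with differences of 0.19 ± 0.074, 0.27 ± 0.091 and 0.24 ± 0.083 and adjusted p-values of 0.307, 0.254 and 0.262. DET1 (0.24 ± 0.12, adjusted p = 0.406) and HY5 (-0.18 ± 0.14, adjusted p = 0.632) were not called. At 2 days 0 of 10 were called, where 0% of all 23140 genes were called by limma, 304 of them had an unadjusted p below 0.05, and DESeq2 called 1 gene. In the 7 lists, CIP1, a COP1-binding protein gene, was higher with Heatin at 27°C (0.22 ± 0.065, adjusted p = 0.086) and CHS was higher with Heatin at 22°C (0.61 ± 0.15, adjusted p = 0.0665), both at 7 days. Over both temperatures at 7 days CHS and ELIP1 were higher and CHI, the chalcone isomerase gene, was lower (-0.27 ± 0.063, adjusted p = 0.0213). Of the root markers, 2 of 4 fell with Heatin at 27°C at 7 days, where 5.42% of all genes were called. Seed reserve sums at 22°C at 7 days were 25.1 to 1689 with Heatin (median 100.2) and 11.5 to 34.0 in mock (median 19.1). The lowest Heatin sum lay within the mock range, and 1 of the 8 seed reserve genes was called. The part of these markers in these values was not tested.

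**Figure D5:**
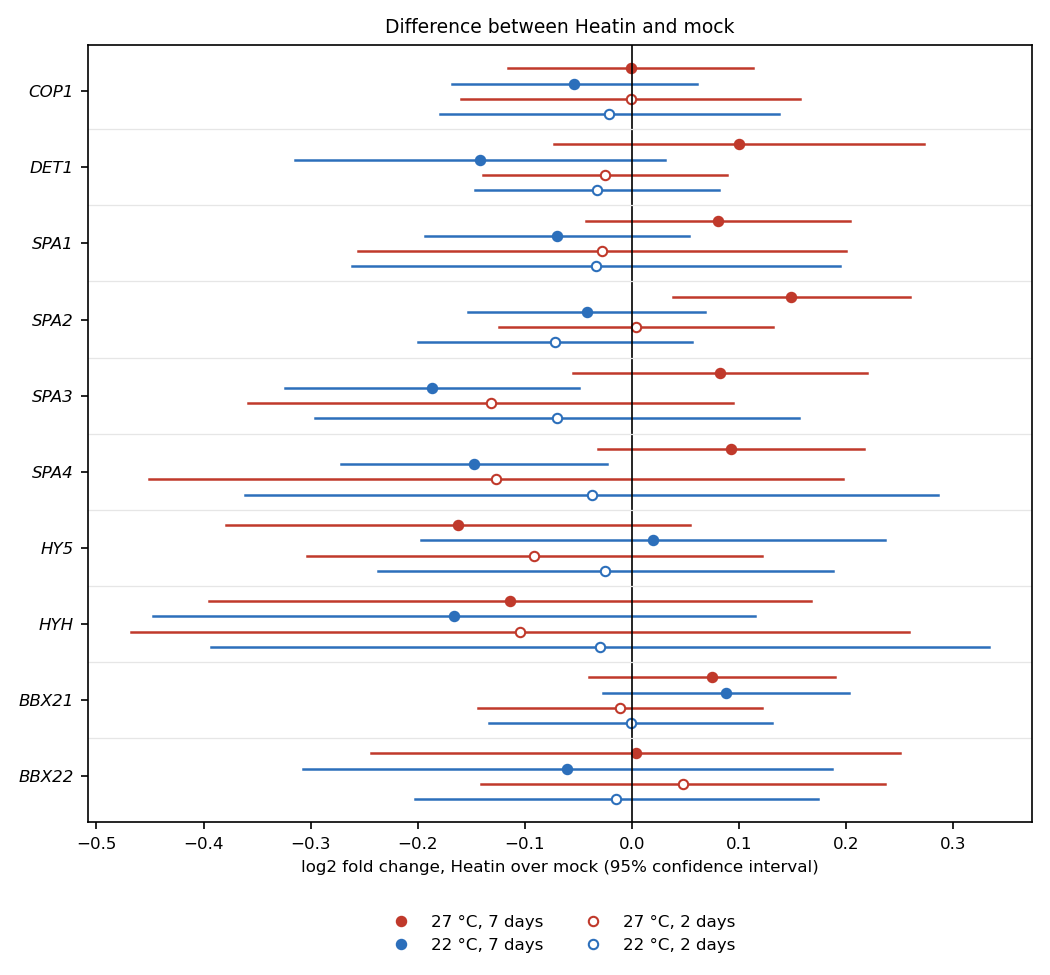
Log2 fold change between Heatin and mock of each gene, with 95% confidence intervals, at 27°C (red) and 22°C (blue) in seedlings of 7 days (filled) and 2 days (open), 3 samples a group. All points lie between -0.19 and 0.15, and the intervals of SPA2 at 27°C and of SPA3 and SPA4 at 22°C at 7 days leave out 0.

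The order of the 8 group means summarises each pattern. For HYH the highest were Heatin and mock at 22°C at 7 days (1753 ± 162 and 1963 ± 69.7 normalised reads, SD, n = 3 each), followed by both at 22°C at 2 days, both at 27°C at 7 days, and Heatin and mock at 27°C at 2 days (268 ± 68.4 and 285 ± 47.8), with mock above Heatin in each pair. Only neighbours that shared age and temperature overlapped in this order. BBX22 had the reverse order of temperatures and the same order of ages within a temperature, with Heatin and mock at 27°C at 7 days on top (553 ± 71.5 and 553 ± 81.6) and Heatin and mock at 22°C at 2 days at the bottom (244 ± 8.64 and 246 ± 5.40). DET1, in contrast, had 6 of 7 neighbouring groups that overlapped, with 1226 ± 68.5 with Heatin at 22°C at 7 days as the lowest mean and 1578 ± 36.1 in mock at 22°C at 2 days as the highest.

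Across the 8 group means (log2 scale), members of 1 family did not always share a pattern. SPA4 was most like HY5 (Pearson r = 0.975) and SPA3 most like HYH (r = 0.935), whereas HY5 and HYH had an r of 0.566 with each other and SPA2 had r between -0.605 and -0.301 with the other SPA genes. BBX21 and BBX22 had an r of 0.905, and HYH and BBX21 one of -0.864. Of 18344 other genes with a mean of at least 50 normalised reads, those nearest to the members were APL1 for SPA4 (r = 0.9990), MYB28 for SPA1 (0.9989), SLAH1 for HY5 (0.9982), NHL12 for HYH (0.9957), FAD7 for SPA3 (0.9968), CRY2 for BBX21 (0.9966) and HSF1 for SPA2 (0.9794). The locus AT2G36770 was nearest to BBX22 (0.9993) and AT1G17360 to COP1 (0.9951). With 8 points that share libraries and are ruled by age and temperature, such values are a description of likeness only.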

How the data were processed

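Per the study's methods, the authors mapped single-end 50-base reads to TAIR10 with TopHat 2.0.13, counted them without strand with HTSeq-count 0.6.1, removed CPuORF entries and divided counts by a DESeq depth factor. The deposited values are a depth-adjusted signal, here called normalised reads, in 24 samples of 33540 genes and 5 summary lines, which were left out. Whole reads could be recovered for 100% of values (tolerance 0.05). The main test was limma 3.58.1 (R 4.3.3) with a mean-variance trend on log2(value + 1), so folds of low genes are understated. Fits used the 12 samples of an age, or 24 for age, on genes with a mean of at least 1, with Benjamini-Hochberg adjustment over all genes tested and calls at an adjusted p below 0.1. edgeR 4.0.16, DESeq2 1.42.0 and voom on the recovered reads, other depth factors, pseudocounts, filters and left-out samples were alternatives. Gene models and sequences came from RefSeq TAIR10.1, where 32835 of 33540 identifiers were found. The members and lists were chosen with earlier results of these data known. All members were named. For each member the genes with the nearest pattern, by Pearson r of log2 group means, were listed, and that for DET1 is not reported here.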

Additional observations from a re-analysis of the deposited data

Results flagged for a closer look

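For 5 of the 10 genes the response to warmth in mock seedlings differed between the ages by a test of the difference itself (limma, 3 samples in each of 4 groups). This share is at the background, since 50.1% of all genes tested were called in the same comparison. The log2 fold change between 27°C and 22°C at 7 days minus that at 2 days was -0.65 for COP1, 0.19 for SPA2, -0.77 for SPA3, -1.06 for SPA4 and -0.38 for HY5. Those of SPA2 and HY5 were lost when single samples were left out.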

How the results depend on the processing

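No value of a member changed direction among called results under any alternative. Of 720 values of 53 called results under other settings, 697 stayed called and 23 did not, and of 348 with 1 sample left out 319 stayed called and 29 did not. Of 97 results that were not called, 6 of 1310 values passed under other settings and 7 of 852 with 1 sample left out. With the replicate number as a block, the count of members called for Heatin at 22°C at 7 days was 1 and not 0 (SPA3, -0.19, adjusted p = 0.0727, limma). The block also called COP1 for warmth in mock at 2 days (0.0878), SPA4 for warmth with Heatin at 2 days (0.0594) and SPA1 for the difference between the ages (0.0803), and it changed no other call. The labels do not say whether replicate numbers pair the samples, but 8 of 12 samples at 7 days and 11 of 12 at 2 days were closest to their own number. Same-number correlations exceeded 0.1 in 11 of 18 pairs at 7 days and 15 of 18 at 2 days. For pairs of different numbers this was 2 of 36 and 7 of 36. Samples of the same number deviated together more often at both ages, and the main fit leaves this out. With 1 sample left out, the count for Heatin at 27°C at 7 days ranged between 0 and 1, and that for the difference of the warmth response between the ages between 3 and 6. Over all genes, Heatin calls at 7 days depended on the fit: at 27°C 1260 genes were called, against 643 with all 24 samples in 1 fit, and at 22°C 574, against 241 in that fit and 948 with the block. For the difference of the Heatin effect between temperatures it was 182, against 40 in that fit, 446 with the block and 294 with DESeq2. With 3 samples a group, changes between Heatin and mock that lie inside the printed intervals may have been missed.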
